A study of Mus musculus with 12 samples.

Results

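Matricellular proteins are secreted into the extracellular matrix, where they act on cells and growth factors more than they bear load. The genes described here are Postn (periostin), Spp1 (osteopontin), Tnc (tenascin C), Ccn1 and Ccn2 (formerly Cyr61 and Ctgf), Sparc (osteonectin) and Fn1 (fibronectin), 7 of the 56350 genes in the table, chosen by name and found by their Ensembl identifiers. They were measured in polyadenylated RNA from the apex of the left ventricle of mice. Tissue was taken 8 weeks after a sham operation or after TAC (transverse aortic constriction), which narrows the aorta and loads the ventricle with pressure. Mice with a global knockout of lincRNA-p21 (gene symbol Trp53cor1) were compared with littermates labelled heterozygous, called controls here, so the controls also carry 1 altered allele. Each genotype had a sham and a TAC group, 4 groups of 3 libraries; strain, age and sex are not in the labels used here.

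In the adult heart most matricellular genes are quiet, and injury or overload turns them on in fibroblasts, macrophages and stressed muscle cells. Periostin and tenascin C bind collagen and fibronectin and alter how cells attach. Osteopontin is an integrin ligand, the CCN proteins are early targets of mechanical and TGF-beta signals, SPARC binds collagen as it is laid down, and fibronectin forms the fibrils on which other matrix proteins assemble.

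The libraries held 10323605 to 13238934 reads assigned to genes. Trp53cor1, the targeted gene, had 11 reads in the 6 control libraries together and 0 reads in the 6 knockout libraries, too few to check a single library. Markers of the ventricular cardiomyocyte made up 55510 to 80760 CPM (reads scaled to equal library totals) in every library, and atrial markers 34.3 to 519.6. Control sham replicate 3 stood apart on the second principal component (score −46.8, the others from −15.6 to 33.7) and knockout TAC replicate 3 stood apart from its group (−15.6 against 22.9 and 33.7). Whether replicates come from separate animals is not in the labels, and p-values measure only how these samples spread, which may be technical. In bulk tissue, fewer cells of a type and less RNA per cell cannot be told apart.

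Values below are normalised reads (reads over a size factor for each library), and each change is a difference of log2(value + 1) with its standard error (SE), a scale that understates changes of genes with few reads. The test was limma-trend over 13916 genes with Benjamini-Hochberg adjustment, and a gene was called where the adjusted p was under 0.05. All 7 genes entered it. Spp1 reached the required value of 10 in 5 libraries, 3 of them control TAC, and so entered through the group where it was high.

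TAC raised most of these genes in control ventricles. Postn, Spp1, Tnc, Ccn1, Ccn2 and Fn1 rose, 6 of 7, while Sparc did not pass the test. Of all genes tested, 11% rose and 10.6% fell in the same comparison. The 7 genes were chosen with earlier results of these data known, so such shares are given as background and do not test the set. The median change of the 7 genes was 1.72, against 0.01 for all genes tested. In the same 6 genes every control TAC library lay above every control sham library, as it did for 17.7% of all genes tested.

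Postn (ENSMUSG00000027750.16, GRCm38 chromosome 3, 54361109 to 54391037, plus strand), which marks activated fibroblasts, stood at 469, 572 and 352 in control sham replicates 1 to 3 and at 2376, 2878 and 2546 in control TAC replicates 1 to 3. The ranges were far apart and the TAC libraries lay close together. The mean went from 464 ± 109.9 (SD, n = 3) to 2600.0 ± 255 (SD, n = 3), a change of 2.51 ± 0.23 (limma-trend, adjusted p = 1.5e-05).

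Tnc (ENSMUSG00000028364.15, chromosome 4, 63959785 to 64047015, minus strand), a large matrix protein that loosens cell attachment, was at 22.4, 13.3 and 16.1 in the control sham libraries. After TAC the control libraries held 56.2, 85.5 and 40.1. All TAC values were above all sham values, with a wider spread after TAC, and the change was 1.72 ± 0.39 (limma-trend, adjusted p = 0.0065).

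Spp1 (ENSMUSG00000029304.14, chromosome 5, 104435118 to 104441050, plus strand), the osteopontin gene, rested on few reads: 2, 5 and 1 in the control sham libraries and 32, 36 and 24 in the control TAC libraries. As normalised reads this was 2.13, 4.75 and 0.848 after sham and 34.6, 37.1 and 22.4 after TAC. The groups did not overlap, and the ratio of the means was 12.2. The fitted change was 3.30 ± 0.58 (limma-trend, adjusted p = 0.0014), and it stayed called when every gene with a read was tested.

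Spp1 lies on chromosome 5 in a cluster of related genes of mineralised tissue. Its neighbours Ibsp (104299171 to 104311469) and Dmp1 (104202613 to 104214102) did not go above 1.08 and 5.41 normalised reads in any library, and Mepe (104325329 to 104338611) and Dspp (104170712 to 104180127) were listed at 0 in all 12. Why some genes in the table, among them Mepe, Dspp, Cthrc1, Trem2 and Lats1, hold only 0 was not tested, and a 0 there is not read as absence.

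The CCN genes code for small cysteine-rich proteins that bind integrins. Ccn1 (ENSMUSG00000028195.4, chromosome 3, 145646976 to 145649981, minus strand) was at 606, 663 and 735 in control sham and 1459, 1811 and 846 in control TAC libraries. Control TAC replicate 3 was near the sham range and the other TAC libraries were well above it. The change was 0.97 ± 0.22 (limma-trend, adjusted p = 0.0063).

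Ccn2 (ENSMUSG00000019997.11, chromosome 10, 24595442 to 24598683, plus strand), a profibrotic gene, had values of 397, 1457 and 923 in control sham and 3385, 7150 and 1773 in control TAC libraries. Both groups were widely spread, and the lowest TAC library lay just above the highest sham library. The change was 2.11 ± 0.54 (limma-trend, adjusted p = 0.023). That call ended without control sham replicate 3 (adjusted p = 0.0678), control TAC replicate 1 (0.0505) or control TAC replicate 2 (0.0501). Over all its alternatives the adjusted p ran from 0.0010 to 0.092.

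Fn1 (ENSMUSG00000026193.15, chromosome 1, 71585520 to 71653200, minus strand) was at 648, 614 and 741 in control sham and 1203, 1353 and 989 in control TAC libraries. The groups were apart and each was narrow, and the change was 0.82 ± 0.15 (limma-trend, adjusted p = 0.0020). The table has 1 value per gene, so splice forms of fibronectin, tenascin C and periostin are not told apart.

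Sparc (ENSMUSG00000018593.13, chromosome 11, 55394500 to 55423183, minus strand) was at 4819, 5339 and 6515 in control sham and 5740, 7092 and 5933 in control TAC libraries. These ranges overlapped. The difference was 0.18 ± 0.16 with a 95% interval of −0.16 to 0.51 (limma-trend, adjusted p = 0.45). This interval ends below the estimate of Fn1 but overlaps the Fn1 interval of 0.495 to 1.135, and the genes were not tested against each other.

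**Figure D1:**
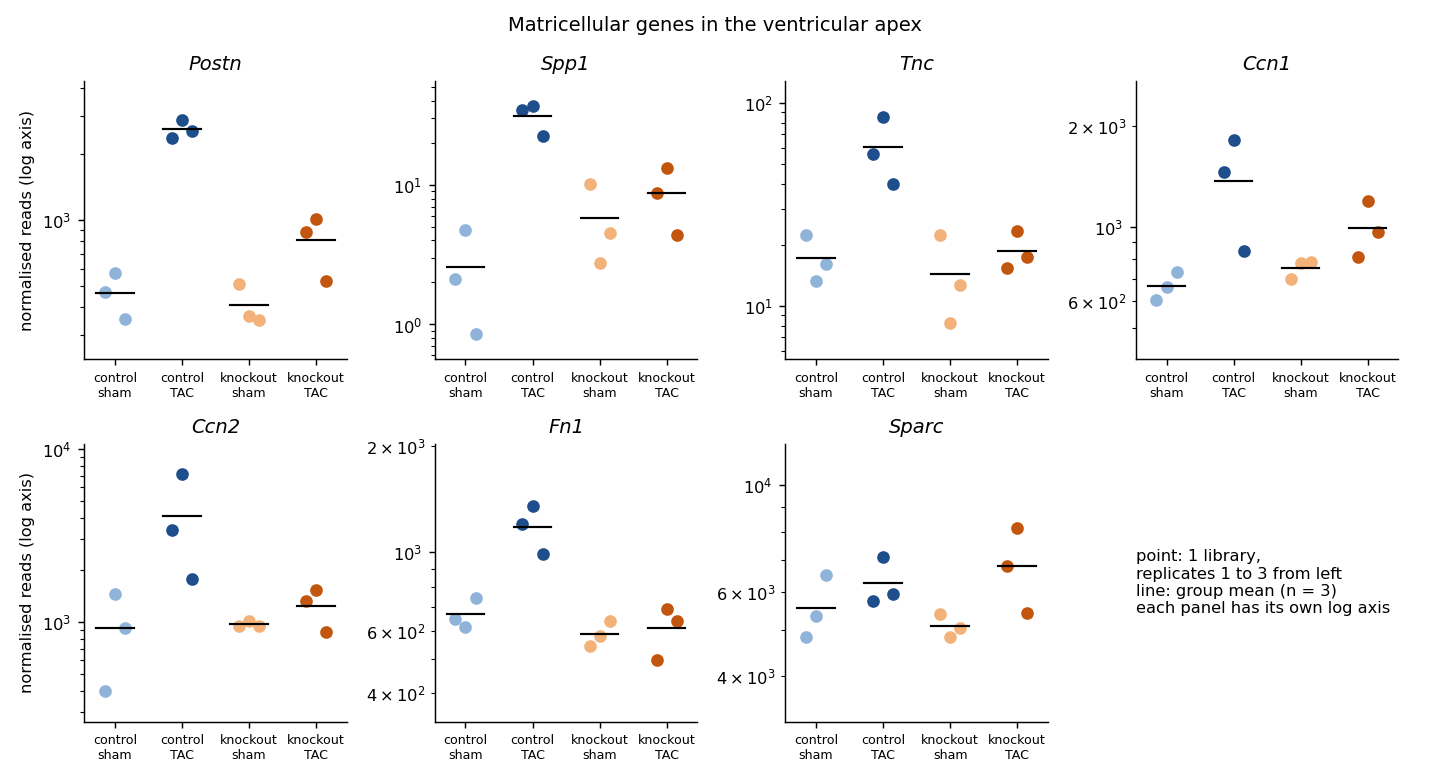
Normalised reads of the 7 genes (log axis, one scale per panel) by group, with 1 point per library and a line at the group mean (n = 3). Control TAC stands above the other 3 groups for Postn (2376 to 2878, against at most 1015) and for Spp1, Tnc, Ccn2 and Fn1, but not for Ccn1 and Sparc.

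Promoter sequence is shown for the rising genes for which RefSeq (GRCm38.p6) had a start within 50 bases of the GENCODE M21 start, since these genes rose together: Postn (chr3:54360857-54361106, plus strand), Spp1 (chr5:104434861-104435110, plus strand), Tnc (chr4:64047016-64047265, minus strand) and Ccn1 (chr3:145649986-145650235, minus strand). Each is the 250 bases before the first base of the gene, 5′ to 3′ on the gene's strand, with motif matches in capitals.
Postn: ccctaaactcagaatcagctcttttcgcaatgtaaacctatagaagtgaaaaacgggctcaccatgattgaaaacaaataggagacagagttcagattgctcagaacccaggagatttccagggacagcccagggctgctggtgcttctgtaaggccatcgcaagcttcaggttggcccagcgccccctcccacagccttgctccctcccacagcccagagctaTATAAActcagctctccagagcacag
Spp1: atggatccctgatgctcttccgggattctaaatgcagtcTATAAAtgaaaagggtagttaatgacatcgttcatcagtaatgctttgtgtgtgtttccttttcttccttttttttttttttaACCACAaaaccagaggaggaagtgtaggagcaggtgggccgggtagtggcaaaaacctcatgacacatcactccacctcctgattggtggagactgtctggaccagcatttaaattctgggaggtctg
Tnc: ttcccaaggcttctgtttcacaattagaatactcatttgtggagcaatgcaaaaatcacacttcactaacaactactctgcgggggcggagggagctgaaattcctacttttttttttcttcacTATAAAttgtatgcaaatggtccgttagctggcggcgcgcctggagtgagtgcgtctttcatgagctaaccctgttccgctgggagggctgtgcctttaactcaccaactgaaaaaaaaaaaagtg
Ccn1: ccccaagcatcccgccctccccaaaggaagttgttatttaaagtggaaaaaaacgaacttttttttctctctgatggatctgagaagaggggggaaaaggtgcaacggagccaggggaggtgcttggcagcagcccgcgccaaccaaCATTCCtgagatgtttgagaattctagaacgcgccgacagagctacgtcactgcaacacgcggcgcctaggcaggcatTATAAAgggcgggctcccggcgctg

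The motifs were searched on both strands. TATAAA, the core of a TATA box, was in all 4 windows and in 12.4% of 32851 RefSeq windows of the same length. It began 26 bases before the start of Postn and 25 bases before that of Ccn1, the usual place of a TATA box, but 126 and 211 bases before the starts of Tnc and Spp1. The TEAD motif GGAATG, bound by partners of YAP, was in the Ccn1 window alone among the 4, on the minus strand beginning 103 bases before the start (12.6% of windows). The RUNX motif TGTGGT was in the Spp1 window alone, on the minus strand beginning 128 bases before the start (14% of windows). The AP-1 motif TGACTCA (4.46% of windows), the CArG box of SRF (1.47%) and the SMAD motif GTCTAGAC (0.167%) were in none of the 4; the matches overlapped nowhere. These matches describe letters in a window and show no binding.

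The libraries of a group were ordered alike for several of the genes. Replicate 2 was the highest of the 3 control TAC libraries for 7 of 7 genes, and replicate 3 the lowest for 5 of 7 (Spp1, Tnc, Ccn1, Ccn2 and Fn1), while Postn and Sparc were lowest in replicate 1. Replicate 2 also had the highest score on the first principal component of all genes (59.9, against 44.1 and 34.4). In the knockout TAC group replicate 2 was again the highest for 7 of 7, and replicate 3 the lowest for 4 of 7 (Postn, Spp1, Ccn2 and Sparc). The share of all genes tested with these orders was not counted, so the orders are not read as particular to the 7 genes.

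In knockout ventricles 0 of 7 genes passed the limma-trend test of TAC against sham, where 0.00719% of all genes tested passed. At an unadjusted p under 0.05 there were 2 of 7, Postn and Sparc, against 6.68% of all genes tested. By other tools edgeR called 0 of the 7, DESeq2 called Postn and voom with quality weights called Postn and Sparc. The median difference was 0.39, against −0.01 for all genes tested. The groups did not overlap for Postn, Ccn1 and Sparc, higher after TAC as in 8.31% of all genes tested.

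Postn in knockouts was at 509.7, 367 and 348 after sham and 886, 1015 and 529 after TAC. Replicate 3 of the TAC group was just above the highest sham library and the other TAC libraries were well above it. The difference was 0.95 ± 0.23 with a 95% interval of 0.47 to 1.44 (limma-trend, adjusted p = 0.43). DESeq2 gave 0.99 (adjusted p = 0.026), and limma-trend without knockout TAC replicate 3 gave 1.24 (adjusted p = 0.039), the only one of 12 left-out libraries that led to a call; over all alternatives the adjusted p ran from 0.00083 to 0.997.

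Sparc in knockouts was at 5402, 4831 and 5042 after sham and 6791, 8145 and 5406 after TAC. The lowest TAC library was level with the highest sham library, and the difference was 0.39 ± 0.16 (limma-trend, adjusted p = 0.68). Ccn1 was at 699.9, 778 and 785 after sham and 815, 1192 and 966 after TAC, a difference of 0.38 ± 0.22 (limma-trend, adjusted p = 0.77). For both genes the lowest TAC library was close to the highest sham library, and the TAC libraries were widely spread.

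Ccn2 in knockouts was at 947, 1012 and 942 after sham and 1321, 1521 and 869 after TAC, and the groups overlapped. Its difference was 0.32 ± 0.54 (limma-trend, adjusted p = 0.94). Fn1 was at 543, 580.2 and 638 after sham and 497, 692 and 640.2 after TAC, also overlapping. The Fn1 difference was 0.04 with a 95% interval of −0.28 to 0.36, which does not reach the estimate of 0.82 in controls. The direct test of the difference of TAC effects did not call Fn1 (limma-trend, adjusted p = 0.11).

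Spp1 in knockouts had 10, 3 and 5 reads after sham and 9, 12 and 4 after TAC, and Tnc 22, 9 and 14 reads after sham and 16, 21 and 16 after TAC. Both genes overlapped between the groups. The differences were 0.56 ± 0.58 for Spp1 and 0.44 ± 0.39 for Tnc, with adjusted p of 0.90 and 0.88 by limma-trend. At these counts the 95% intervals were wide, −0.65 to 1.78 for Spp1 and −0.38 to 1.27 for Tnc.

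Between knockout and control ventricles after sham surgery 0 of 7 genes passed by limma-trend (0% of all genes tested), 0 of 7 had an unadjusted p under 0.05 (4.34% of all genes tested), and edgeR, DESeq2 and voom called 0 of the 7. The groups overlapped for each of the 7, while of all genes tested 4.94% were higher and 4.68% lower in knockouts without overlap. Differences ran from −0.32 ± 0.39 for Tnc to 0.93 ± 0.58 for Spp1, and the 95% intervals were narrowest for Fn1 (−0.50 to 0.14) and Sparc (−0.45 to 0.22) and widest for Spp1 (−0.29 to 2.15) and Ccn2 (−0.96 to 1.46). Control sham libraries ran from 397 to 1457 for Ccn2, and the knockout sham libraries lay between 942 and 1012.

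After TAC the knockouts had lower Postn, Tnc and Fn1 than the controls: 3 of 7 fell, where 4.13% of all genes tested fell and 4.1% rose. The libraries of the groups did not overlap, with knockouts lower, for Postn, Spp1, Tnc, Ccn2 and Fn1, 5 of 7, against 15.5% of all genes tested. The median difference was −1.54, against 0.01 for all genes tested. Since this comparison uses the same control TAC libraries as the comparison with sham in controls, they are not independent.

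Postn was at 810.1 ± 252 in knockout TAC and 2600.0 ± 255 in control TAC libraries (SD, n = 3 each), a difference of −1.73 ± 0.23 (limma-trend, adjusted p = 0.0010). Fn1 was at 609.9 ± 101 and 1182 ± 183, a difference of −0.96 ± 0.15 (limma-trend, adjusted p = 0.0025). For both genes the knockout TAC values were nearer to those after sham than to those of control TAC. These calls were made in each of the 24 alternatives, with adjusted p up to 0.0092 for Postn and 0.035 for Fn1.

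Tnc was at 18.7 ± 4.08 in knockout TAC and 60.6 ± 23.0 in control TAC libraries (SD, n = 3 each), a difference of −1.60 ± 0.39 (limma-trend, adjusted p = 0.022). The Tnc call ended without control TAC replicate 1 (adjusted p = 0.0718) or 2 (0.113), without knockout TAC replicate 1 (0.0973) or 2 (0.0603), and with the trend of length and GC content removed (0.0799). Its adjusted p ran from 0.0014 to 0.113 over the alternatives.

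Spp1 and Ccn2 had every knockout TAC library below every control TAC library but did not pass. Spp1 was at 8.79 ± 4.47 in knockout TAC against 31.4 ± 7.87 in control TAC (−1.80 ± 0.58, limma-trend adjusted p = 0.061), and Ccn2 at 1237 ± 334 against 4103 ± 2759 (−1.54 ± 0.54, limma-trend adjusted p = 0.11). On the recovered reads edgeR gave adjusted p = 0.041 for Spp1 and 0.023 for Ccn2, and DESeq2 0.018 for each. Over all alternatives the adjusted p ran from 0.0043 to 0.193 for Spp1 and from 0.0044 to 0.256 for Ccn2. Without control sham replicate 3 Spp1 passed (adjusted p = 0.032), and without control TAC replicate 3 Ccn2 (0.022) and Ccn1 (0.021) passed, all by limma-trend. Ccn1 differed by −0.42 ± 0.22 (limma-trend, adjusted p = 0.25) with overlapping groups, and Sparc by 0.10 ± 0.16 (limma-trend, adjusted p = 0.74).

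The direct test of whether the TAC effect differed between genotypes called 0 of 7 genes by limma-trend (0.309% of all genes tested were called). At an unadjusted p under 0.05 there were 5 of 7 (16.5% of all genes tested): Postn, Spp1, Tnc, Ccn2 and Fn1. The estimates, as TAC effect in knockouts minus that in controls, were −1.55 ± 0.32 for Postn (limma-trend, adjusted p = 0.057), −2.74 ± 0.81 for Spp1 (0.125), −0.77 ± 0.21 for Fn1 (0.11), −1.28 ± 0.55 for Tnc (0.26) and −1.79 ± 0.76 for Ccn2 (0.28). Ccn1 was at −0.59 ± 0.31 and Sparc, the one gene above 0, at 0.22 ± 0.22. edgeR called 0 of the 7, while DESeq2 and voom with quality weights called Postn and Fn1. By limma-trend Postn also passed without control sham replicate 1 (adjusted p = 0.029), knockout TAC replicate 2 (0.045) or knockout TAC replicate 3 (0.032). For Postn the adjusted p ran from 0.00096 to 0.168 over the alternatives, and for Fn1 from 0.0071 to 0.503.

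**Figure D2:**
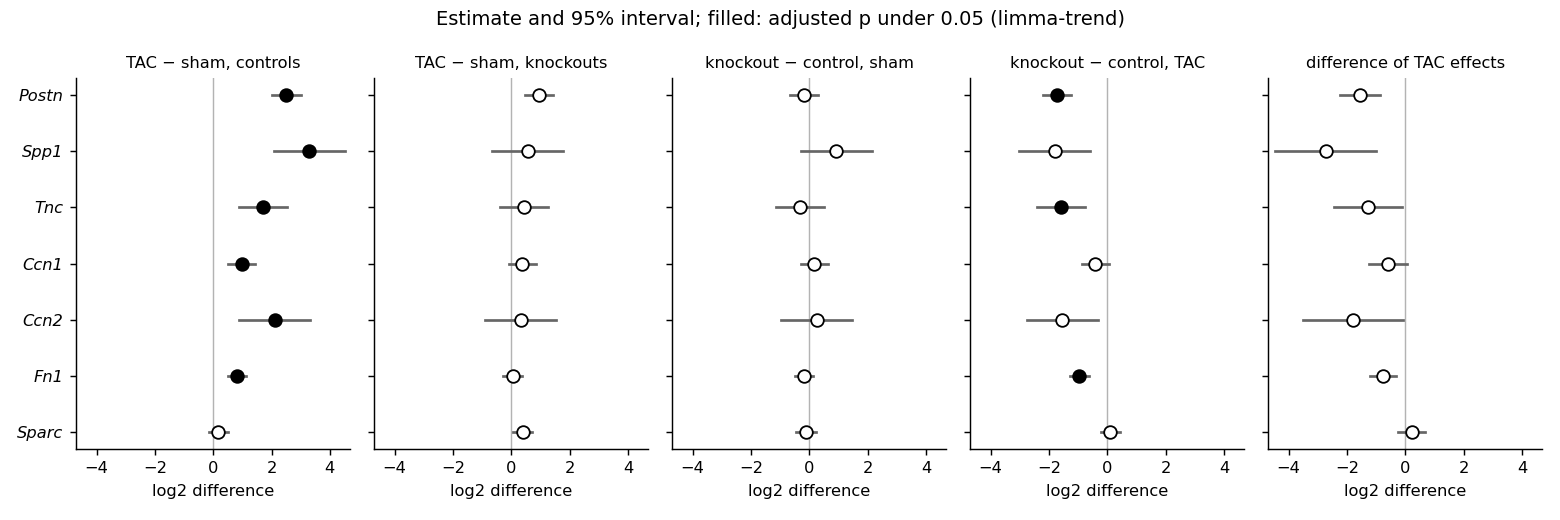
Estimates (points) and 95% intervals (lines) of the log2 difference for each gene in the 5 comparisons, filled where the limma-trend adjusted p was under 0.05. In controls 6 of 7 points are filled on the right, after TAC 3 of 7 are filled on the left (Postn, Tnc and Fn1), and the other panels have no filled point.

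**Figure D3:**
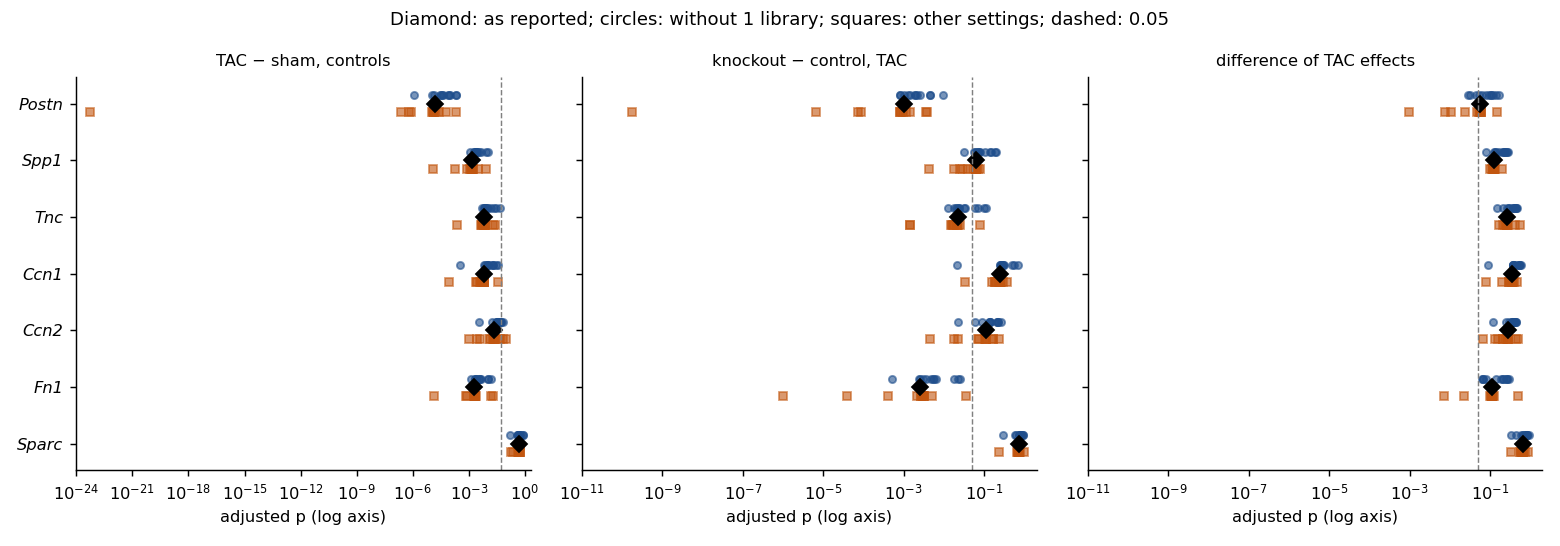
Adjusted p (log axis, a different range in the left panel) of each gene as reported (diamond), without 1 library (circles) and under the other settings (squares), for 3 comparisons; the dashed line is at 0.05. Postn and Fn1 stay left of the line throughout in the left and middle panels, while Ccn2 on the left and Spp1, Tnc, Ccn1 and Ccn2 in the middle lie on both sides.

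Levels of different genes were compared as RPKM, which divides reads by library size and by the length of merged exons. In control sham ventricles Sparc was the most abundant at 131 ± 31.1 RPKM (SD, n = 3). Ccn1 (29.4 ± 5.13) and Ccn2 (28.6 ± 15.8) followed with overlapping ranges, then Fn1 (5.07 ± 0.91) and Postn (4.66 ± 0.83), also overlapping, and last Tnc (0.195 ± 0.049) and Spp1 (0.134 ± 0.099), overlapping again. Knockout sham ventricles had the same pairs, with Spp1 (0.294 ± 0.19) and Tnc (0.155 ± 0.075) again overlapping.

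After TAC the order in controls was Sparc (145 ± 12.4 RPKM), Ccn2 (124 ± 80.04), Ccn1 (59.4 ± 20.0), Postn (26.2 ± 1.81), Fn1 (8.86 ± 1.19), Spp1 (1.67 ± 0.40) and Tnc (0.680 ± 0.239). Sparc, Ccn2 and Ccn1 overlapped with their neighbours, and each of the other neighbours was apart. Postn was above Fn1 and Spp1 above Tnc in every control TAC library. In knockout TAC ventricles Postn (7.63 ± 2.30) was also above Fn1 (4.29 ± 0.735) without overlap, whereas Spp1 (0.437 ± 0.22) and Tnc (0.198 ± 0.043) overlapped. The merged exons were 8702 bases for Postn, whose longest transcript has 5223, so its level per transcript length would be higher. The same holds for Sparc (3788 and 2300) and Fn1 (11685 and 8315). Orders of overlapping neighbours, such as Fn1 and Postn after sham, could therefore change with the length used.

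**Figure D4:**
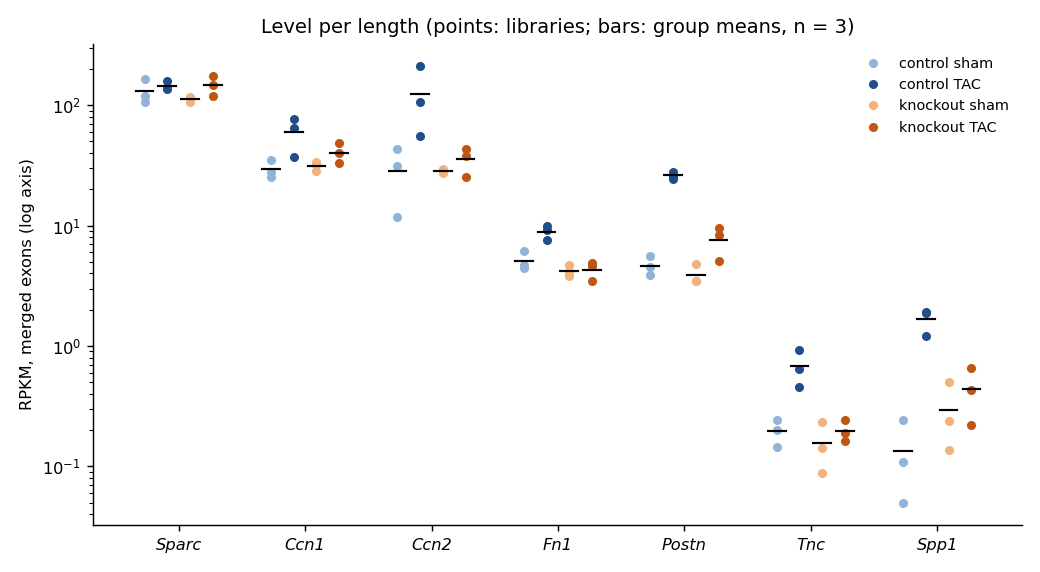
RPKM over merged exons (log axis) of the 7 genes, with points for libraries and bars for group means (n = 3). Sparc lies at 106 to 176 RPKM in all 12 libraries, whereas Tnc and Spp1 lie under 2.

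The members' likeness to each other was described with Pearson's r of log2(value + 1) over the 12 libraries, which share their groups, so no p is given. Postn and Spp1 had r = 0.92 over all libraries and 0.88 after group means were subtracted. Ccn1 and Ccn2 had 0.87 and 0.70. Fn1 went with Ccn1 within groups (0.87, against 0.77 over all libraries), while Fn1 and Postn had 0.81 over all libraries and −0.28 within groups. Sparc had its highest r with Ccn1 (0.58) and its lowest with Fn1 (0.31).

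Among all tested genes with a name, those most like Postn over the 12 libraries were Col8a1, a short-chain collagen (r = 0.99), Dio2, a deiodinase that activates thyroid hormone (0.99), and Cilp, a matrix gene first known from cartilage (0.98). Spp1 was most like Dio2 (0.95), the transcription factor gene Tbx15 (0.95) and Col8a1 (0.94). Tnc was most like Enpp1, an ectonucleotidase (0.93), the fibrillar collagen gene Col5a2 (0.93) and Piezo2, a stretch-gated channel (0.92). Fn1 was most like the cartilage oligomeric matrix protein gene Comp (0.97), Mical3 (0.95) and Mrc2, a collagen receptor (0.94). With group means subtracted, r for these 12 pairs ran from 0.59 (Fn1 with Mical3) to 0.94 (Spp1 with Dio2).

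Ccn1 was most like Rcan1, a calcineurin regulator (0.93), Endod1 (0.93) and the stress-induced factor gene Atf3 (0.93). Ccn2 was most like Tent5a (0.96), the growth factor gene Fgf6 (0.96) and Meox1, a transcription factor of activated fibroblasts (0.94). Sparc was most like Anxa5 (0.95), the progenitor and endothelial marker Cd34 (0.93) and the leukocyte gene Cd52 (0.89). These values describe likeness over 12 libraries and nothing of control or function.

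Receptors of these ligands rose in part in control TAC ventricles. Of 17 tested genes 7 rose and 0 fell (median 0.43, all genes tested 0.01), beside the 11% and 10.6% of all genes tested that rose and fell. Itga9, the integrin chain that binds tenascin C and osteopontin, went from 794 ± 175 to 1881 ± 238 (1.26 ± 0.17, limma-trend adjusted p = 0.00031). Cd44, a hyaluronan receptor that also binds osteopontin, went from 94.2 ± 15.8 to 195 ± 48.3 (1.03 ± 0.20), Itgav, a chain of integrins for osteopontin, periostin and fibronectin, from 203 ± 51.1 to 361 ± 58.6 (0.85 ± 0.18), and Lrp1, an endocytic receptor for matricellular proteins, from 2617 ± 126 to 4831 ± 653 (0.88 ± 0.16). In knockouts 0 of 17 passed with TAC, beside 0.00719% of all genes tested. Between genotypes after TAC 3 were lower in knockouts than in controls (Itga9, Cd44 and Lrp1), beside 4.13% of all genes tested. Lrp1 passed the difference of TAC effects (−1.26 ± 0.23, limma-trend adjusted p = 0.025), 1 of 17, beside 0.309% of all genes tested.

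Other matricellular genes divided. Of 22 tested among 30 listed, 5 rose in control TAC ventricles (Thbs4, Cilp, Comp, Ccn5 and Fstl1) and 4 fell (Spock2, Vtn, Fbln1 and Efemp1), with a median of 0.17, beside 11% and 10.6% of all genes tested. Fstl1, a SPARC relative, went from 1157 ± 62.6 to 2107 ± 140.2 (0.86 ± 0.17, limma-trend adjusted p = 0.0024), a change that Sparc did not share. In knockouts 0 of 22 passed with TAC, beside 0.00719% of all genes tested. After TAC 7 of 22 were lower in knockouts than in controls, beside 4.13% of all genes tested. Thbs4, Comp and Cilp passed the difference of TAC effects, with estimates of −3.27, −3.31 and −3.09, beside 0.309% of all genes tested.

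Upstream, 4 of 14 genes of the TGF-beta pathway rose in control TAC ventricles and 0 fell (median 0.19), beside 11% and 10.6% of all genes tested. The genes that rose included Ltbp2, a matrix protein of the latent TGF-beta binding family (3.42 ± 0.30), the ligand Tgfb2 (1.66 ± 0.17) and the receptor Tgfbr1 (1.01 ± 0.23). In knockouts 0 of 14 passed with TAC, beside 0.00719% of all genes tested. Between genotypes after TAC 5 were lower in knockouts than in controls, beside 4.13% of all genes tested. Of 13 tested regulators of the SRF and YAP pathways, which drive Ccn1 and Ccn2 in stretched cells, Tead1 alone rose in control TAC ventricles (1.43 ± 0.28, limma-trend adjusted p = 0.0035), a share no higher than the 11% of all genes tested. Myocd, Wwtr1 and Mrtfb, with the next smallest p, differed by 0.63, 0.32 and 0.41 and did not pass. In the other comparisons 0 of these 13 passed, beside 8.23% of all genes tested between genotypes after TAC and at most 0.309% in the rest.

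Of 16 matrix partners and processing enzymes 6 rose and 2 fell in control TAC ventricles (median 0.24), beside 11% and 10.6% of all genes tested. Lox, which crosslinks collagen and is aided by periostin, went from 33.2 ± 3.82 to 120.1 ± 39.5 (1.77 ± 0.30, limma-trend adjusted p = 0.0012). Fbn1, fibrillin, rose by 0.92 ± 0.16 and Col1a2 by 0.49 ± 0.12, while the protease gene Mmp9 fell (−1.78 ± 0.39). In knockouts 0 of 16 passed with TAC, beside 0.00719% of all genes tested. After TAC 8 were lower and 1, Mmp12, higher in knockouts than in controls, beside 4.13% and 4.1% of all genes tested.

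**Figure D5:**
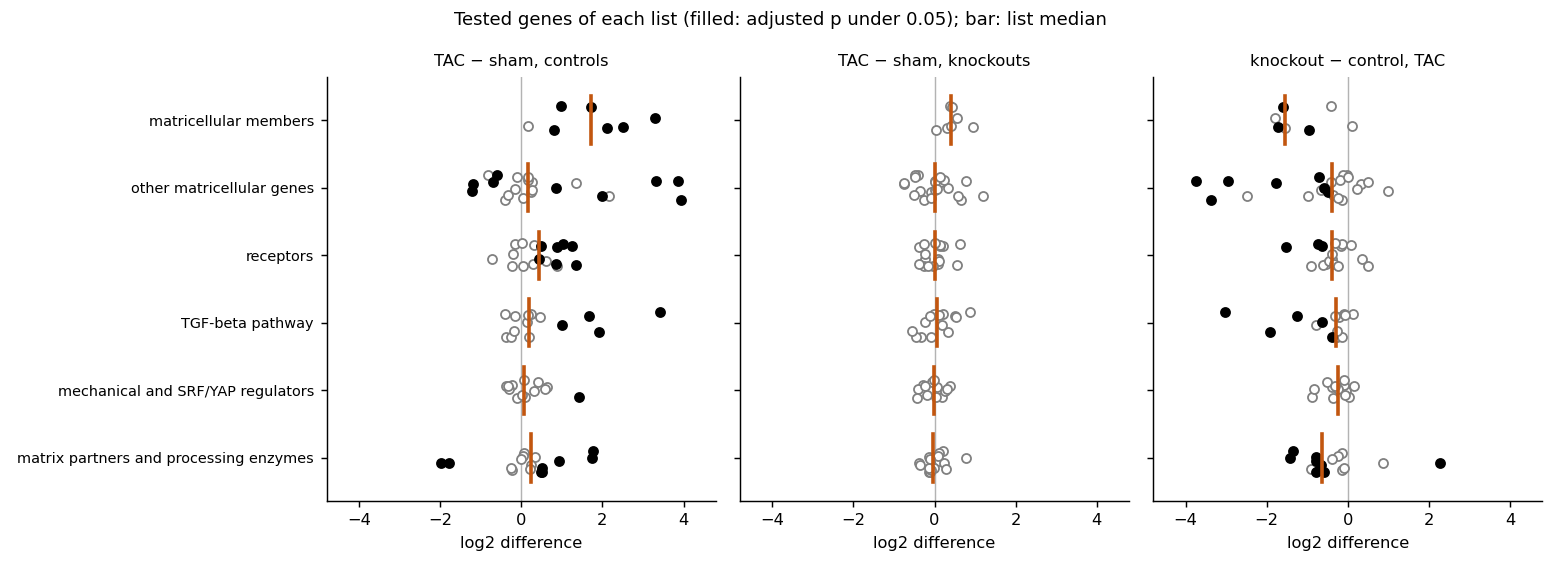
Log2 differences of the tested genes of each list (points, filled where the adjusted p was under 0.05; height within a list carries no meaning) and list medians (bars) in 3 comparisons. The medians of the 7 matricellular genes lie at 1.72, 0.39 and −1.54, and no point is filled in the middle panel.

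The markers of the cells that could supply these transcripts were read beside the results. Fibroblast markers (8 genes) summed to 2264 to 3251 CPM in control sham and 2221 to 2465 in control TAC libraries, overlapping ranges. With TAC in controls 1 of 8 rose (Mfap5) and 1 fell (Gsn, among the most abundant of them). These shares were near the 11% and 10.6% of all genes tested. In knockout sham libraries the 8 genes summed to 2311 to 2378. In knockout TAC libraries they summed to 1731 to 2216, under the knockout sham range and barely under the lowest control TAC library. Pdgfra and Mfap5 were lower in knockout TAC than in control TAC libraries, 2 of 8, beside 4.13% of all genes tested. Normalised reads of Gsn and Dcn overlapped between these groups. CPM totals include mitochondrial reads, 19.1% to 20.0% in knockout TAC and 15.5% to 17.1% in control TAC libraries. They made up 12.5% to 18.7% in control sham and 14.7% to 16.8% in knockout sham libraries. Small gaps between CPM sums, here and below, are therefore not read as differences. Activated fibroblast markers (8 genes) summed to 152 to 240.1 in control sham and 229 to 250.4 in control TAC libraries. Of 7 tested 5 rose and Acta2, smooth muscle actin, fell, beside 11% and 10.6% of all genes tested. Cthrc1 was listed at 0 in all 12 libraries. In knockouts 0 of 7 activated fibroblast markers passed with TAC, beside 0.00719% of all genes tested. The knockout TAC sum was 165 to 183.6, apart from control TAC but overlapping knockout sham (173 to 260.5). Meox1 and Ltbp2 were lower in knockout TAC than in control TAC, 2 of 7, beside 4.13% of all genes tested. Macrophage markers (12 genes, Trem2 listed at 0 in all 12 libraries) summed to 362 to 462 in control sham and 294 to 493 in control TAC libraries. Of 11 tested 0 passed in any comparison, while with TAC in controls 11% of all genes tested rose and 10.6% fell. Lyz2 and C1qb, the macrophage markers with the most reads, were at 1770.0 ± 284.6 and 714 ± 168.3 in control sham and at 1668 ± 384.7 and 579 ± 105.3 in control TAC libraries.

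Markers of other cells differed too. Cardiomyocyte markers (8 genes) summed to 63610 to 80760 CPM in control sham and 55510 to 61370 in control TAC libraries. They summed to 70850 to 75010 in knockout sham and 63090 to 68370 in knockout TAC libraries. In both genotypes the TAC range lay below the sham range, but by a small gap for sums whose totals include mitochondrial reads. The members divided: with TAC in controls 4 fell (Tnnt2, Tnni3, Myl2 and Myl3) and Ryr2 rose, beside 10.6% and 11% of all genes tested. Myh6, Actn2 and Pln did not pass. Mesothelial markers (7 genes) summed to 18.02 to 46.2 in control sham and 5.47 to 16.3 in control TAC libraries, again with a small gap. They summed to 17.5 to 33.0 in knockout sham and 16.6 to 34.0 in knockout TAC libraries, overlapping ranges. With TAC in controls 5 of these 7 fell, beside 10.6% of all genes tested. Atrial markers (6 genes) summed to 34.3 to 89.4 in control sham, 242.5 to 519.6 in control TAC, 75.6 to 82.8 in knockout sham and 116 to 163 in knockout TAC libraries. The control TAC range, where Postn, Spp1, Tnc, Ccn2 and Fn1 were also highest, lay above the others. Nppa held most of the atrial reads there, with a mean of 482 in control sham and 3562 in control TAC libraries. Myl4, Myl7 and Sln rose with it, so 4 of 5 tested rose, beside 11% of all genes tested. Nr2f2 did not pass and Bmp10 was at 0 in control TAC. Sln was at 24.9 to 69.9 in control TAC libraries and at most 1.70 in any other library. It therefore entered the test only through the group where it was high. Summed endothelial and smooth muscle markers overlapped between control sham and control TAC. Of 8 smooth muscle and pericyte markers 2 fell, Smtn and Kcnj8, beside 10.6% of all genes tested. For 8 of 8 endothelial markers the estimate was below 0 (median −0.28, all genes tested 0.01), but none passed. The part of these shifts in the results on the 7 genes was not tested.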

How the data were processed

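The deposited table holds a signal value per gene and library: reads per gene that the authors divided by one size factor per library, read from the values, all of which (100%) are whole multiples of one step within 0.01. Per the submitters' processing notes STAR, SAMtools and featureCounts were used with GRCm38.p6; which versions, annotation, strand setting and scaling tool they used is not given in the sources used here, so overlapping and antisense genes are uncertain. Of 56350 identifiers 55480 matched GENCODE M21.

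The 13916 genes reaching a value of 10 in 3 or more libraries were tested with limma-trend (limma 3.58.1, R 4.3.3, robust) on log2(value + 1), with 4 group means over 12 libraries and 5 contrasts. The 7 genes and all gene lists were chosen with earlier results of these data known. Named genes were the 7, up to 4 per list with the smallest p for TAC in controls, the 2 most abundant of marker lists where used, and the 3 most like each of the 7; others named were called list members. The values of 1 list gene are not reported here. Alternatives were edgeR 4.0.16, DESeq2 1.42.0 and voom on recovered reads, TMM and upper-quartile scaling, pseudocounts of 0.5 and 5, other filters (any read; 50), the replicate number as a block, only the libraries compared, a loess trend on transcript length and GC (span 0.5) removed, and leaving out each library. The fit was tested on simulated counts. Between replicates chi-square per gene was 5.37 to 57.4, more than sampling noise, so each library counted as 1 sample.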

Additional observations from a re-analysis of the deposited data

How the results depend on the processing

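Calls over all genes and calls of the 7 genes both moved with the settings. TAC in controls called 3006 genes, 1433 with only the libraries compared and 1467 with the length and GC trend removed (without 1 library, 1533 to 3656). TAC in knockouts called 1, against 23 by DESeq2, 837 by voom, 2 with every gene that had a read, 3 with the replicate block and 32 with only the libraries compared (0 to 7 without 1 library). Knockout against control after sham called 0, 1 by DESeq2 and 1 by voom (0 to 1 without 1 library), and after TAC 1145, 3818 by voom and 588 with the trend removed (202 to 2144 without 1 library). The difference of TAC effects called 43, against 480 by DESeq2, 1535 by voom, 65 with a pseudocount of 5, 124 with every gene that had a read and 20 with the trend removed (8 to 758 without 1 library). Ccn2 in the TAC comparison of controls stayed at 2.11 but did not pass with every gene that had a read (adjusted p = 0.064) or with only the libraries compared (0.092); without 1 library it ran from 1.59 to 2.60. In the TAC comparison of knockouts Postn passed by DESeq2 (0.99) and voom (1.17; 0.77 to 1.24 without 1 library), Sparc by voom (0.49), and Fn1 was at −0.058 by voom and −0.01 without knockout sham replicate 1 or −0.054 without knockout TAC replicate 2 (−0.054 to 0.18). After sham, Ccn2 was at −0.26 without control sham replicate 1 (to 0.67) and Sparc at 0.0039 without control sham replicate 3 (from −0.21). Between genotypes after TAC, Spp1 passed by edgeR (−1.81), DESeq2 (−1.84), voom (−1.70), with a pseudocount of 5 (−1.43) and with only the libraries compared (−1.80; −2.13 to −1.43 without 1 library), Ccn2 by edgeR (−1.72), DESeq2 (−1.73) and voom (−1.44; −2.03 to −1.02), and Ccn1 by voom (−0.54; −0.73 to −0.18). Tnc did not pass with the trend removed (−1.28; −1.85 to −1.32 without 1 library), and Sparc was at −0.00051 there (−0.040 without knockout TAC replicate 2, to 0.26). The difference of TAC effects passed for Postn by DESeq2 (−1.5), voom (−1.15), with a pseudocount of 5 (−1.55), every gene that had a read (−1.55) and the replicate block (−1.55; −1.74 to −1.27 without 1 library), and for Fn1 by DESeq2 (−0.77) and voom (−0.96). The cause of these moves was not tested. Other scalings moved the median of all genes by less than 0.1. Tnc and Spp1 have no value under the filter at 50. Same-numbered libraries deviated together with r above 0.1 in 3 of 18 pairs (−0.07 to 0.25) and 16 of 36 checks were highest with their own number. With so few libraries this check cannot settle whether the numbers pair them. By limma-trend the block gave Postn an adjusted p of 0.011 for the difference of TAC effects and changed no other call of the 7. Depth limits Spp1 and Tnc, with 1 to 36 and 9 to 83 reads per library.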
